A study of Mus musculus with 2 samples.

Results

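The T cell receptor complex and its first signalling proteins were described through 9 genes: Cd3d, Cd3e, Cd3g, Cd247, Cd4, Thy1, Lck, Zap70 and Fyb. Their probe sets were taken from the platform annotation of both Affymetrix Mu11k chips, which gave 10 of 13179 probe sets, for 8 of the 6137 genes that the annotation names singly. Of these, 4 lie on the chip called subA (Cd3e, Cd247 and 2 for Fyb) and 6 on subB (Cd3d, Cd3g, Cd247, Cd4, Thy1 and Zap70). No probe set carries the symbol Lck in that annotation, so Lck has no value, and Cd247 alone has values on both chips.

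The RNA came from purified CD4+ T cells of spleen and lymph node of female mice, B10.PL, TCR transgenic for Ac1-11 of myelin basic protein (MBP). Both samples share this strain and cell source and are labelled 48 h. The series compares 4Y, a stimulus named without a description, with Ac1-11. For each chip there is 1 array with deposited levels and 1 baseline array, whose level was worked out by subtracting the listed change from the level. The baseline arrays have no sample of their own. No array is replicated, so no test was possible, and precision is limited by having so few arrays.

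The direction of the comparison is not settled. The levels filed under samples labelled Ac1-11 equal, for every probe set of both chips (6584 on subA, 6595 on subB), those of the experiment that the comparison tables name 4Y. The folds of the 2 chips also ran against each other over 135 genes detected on both (Spearman correlation -0.41, Pearson correlation -0.56, across genes, which are not independent replicates). The arrays are therefore called the deposited array and the baseline array, each chip is kept apart, and the fold is always deposited over baseline.

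In a T cell, the receptor's antigen-binding chains do not signal themselves but sit among the CD3 gamma, delta, epsilon and zeta chains, whose tails carry tyrosine motifs. The kinase Lck, held at the coreceptor CD4, phosphorylates these motifs. The kinase ZAP-70 then docks on them and phosphorylates adaptors, to which ADAP, the product of Fyb, is linked, and ADAP couples the receptor to integrin adhesion. Engaged receptor complexes are taken in and degraded, and the level of their chains at the surface falls after stimulation.

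The genes Cd3g, Cd3d and Cd3e are neighbours on mouse chromosome 9, and Cd3g and Cd3d are transcribed away from each other with starts 1355 bases apart. The 250 bases before each start are shown because the first 2 of these genes received decrease calls on the same array pair while Cd3e, measured on the other chip, did not. They are RefSeq sequences of GRCm38.p6, given 5′ to 3′ on the gene's strand. Capitals mark the letters GGAAGT, a longer form of the GGAA core bound by ETS factors, on either strand (ACTTCC where it lies on the opposite one).
Cd3g, chr9:44980432-44980681, minus strand: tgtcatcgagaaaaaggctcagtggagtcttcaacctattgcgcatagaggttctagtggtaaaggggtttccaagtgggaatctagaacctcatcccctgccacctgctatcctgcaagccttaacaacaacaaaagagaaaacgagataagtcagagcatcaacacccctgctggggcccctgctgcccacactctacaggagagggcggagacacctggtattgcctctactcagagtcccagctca
Cd3d, chr9:44981536-44981785, plus strand: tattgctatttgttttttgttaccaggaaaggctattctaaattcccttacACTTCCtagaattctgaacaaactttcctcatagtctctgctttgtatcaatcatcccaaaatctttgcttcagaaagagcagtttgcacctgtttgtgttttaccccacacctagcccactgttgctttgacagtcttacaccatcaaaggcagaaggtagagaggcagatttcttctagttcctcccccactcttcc
Cd3e, chr9:45009612-45009861, minus strand: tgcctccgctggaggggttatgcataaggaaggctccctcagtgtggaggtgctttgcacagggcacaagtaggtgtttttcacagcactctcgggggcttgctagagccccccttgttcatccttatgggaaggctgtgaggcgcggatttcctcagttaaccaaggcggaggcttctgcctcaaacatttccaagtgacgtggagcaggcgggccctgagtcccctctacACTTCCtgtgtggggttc

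Windows of this kind were found for 7 of the 9 genes, 10 windows in all, because Zap70 has 3 and Lck has 2. The letters GGAAGT were in 6 of the 10, against 19.7% of 32851 windows of the same length in the mouse table. Those 6 belong to Cd3d, Cd3e, Cd247, both starts of Lck and 1 of the 3 starts of Zap70, while Cd3g and Fyb had none. The shorter core GGAA, which the printed Cd3g window does hold, was not counted. The TATA box letters TATAAA were in 0 of the 10 windows (12.4% of all), the RUNX core TGTGGT in 2 (14.0%) and the E-box CANNTG in 8 (66.2%). No GGAAGT match overlapped one of the other motifs, all were searched on both strands, and they were chosen after some of the sequences had been seen. These are matches of letters only.

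Among the CD3 chains, the delta and gamma genes stood lower on the deposited array of subB, and the epsilon gene stood higher on that of subA. Cd3g, the gamma chain, had a level of 4317 average difference units (perfect match minus mismatch signal) on the deposited array, against 9078 on the baseline array. The authors' deposited table lists it as 2.1-fold lower, with a decrease call, 10 of 20 probe pairs scored as decreased and 1 as increased. On subB, 121 of 1813 detected probe sets (6.67%) had a fold at least this far down, and 1.60% had as many decreased pairs. A probe set is called detected here when the deposited array was called present or the baseline array was not marked absent. Of the 20 pairs of Cd3g, 10 were scored positive on the deposited array, against 14 to 18 in the other members apart from Cd247 on this chip.

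Cd3d, the delta chain, had a level of 12774 on the deposited array and 23316 on the baseline array. The authors' deposited table gives it a decrease call at 1.8-fold lower, with 8 of 20 pairs decreased and 0 increased. A fold this far down was found in 10.8% of detected probe sets of subB. The neighbouring genes Cd3d and Cd3g thus had the same call on this array pair, with 1 pair between them scored the other way.

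Cd3e, the epsilon chain, which pairs with both gamma and delta, had 13557 units on the deposited array of subA, against 9955 on the baseline array. Its fold in the authors' deposited table was 1.4 higher with no difference call, and 3 of 20 pairs were scored as increased and 0 as decreased. The 300 detected probe sets of subA nearest to it in level were themselves higher, with a median of 0.26 on the log2 scale. The log2 fold of Cd3e was 0.49, which leaves 0.22. Whether the epsilon chain moved apart from the gamma and delta chains cannot be told from these values, since no array pair measured all 3.

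**Figure D1:**
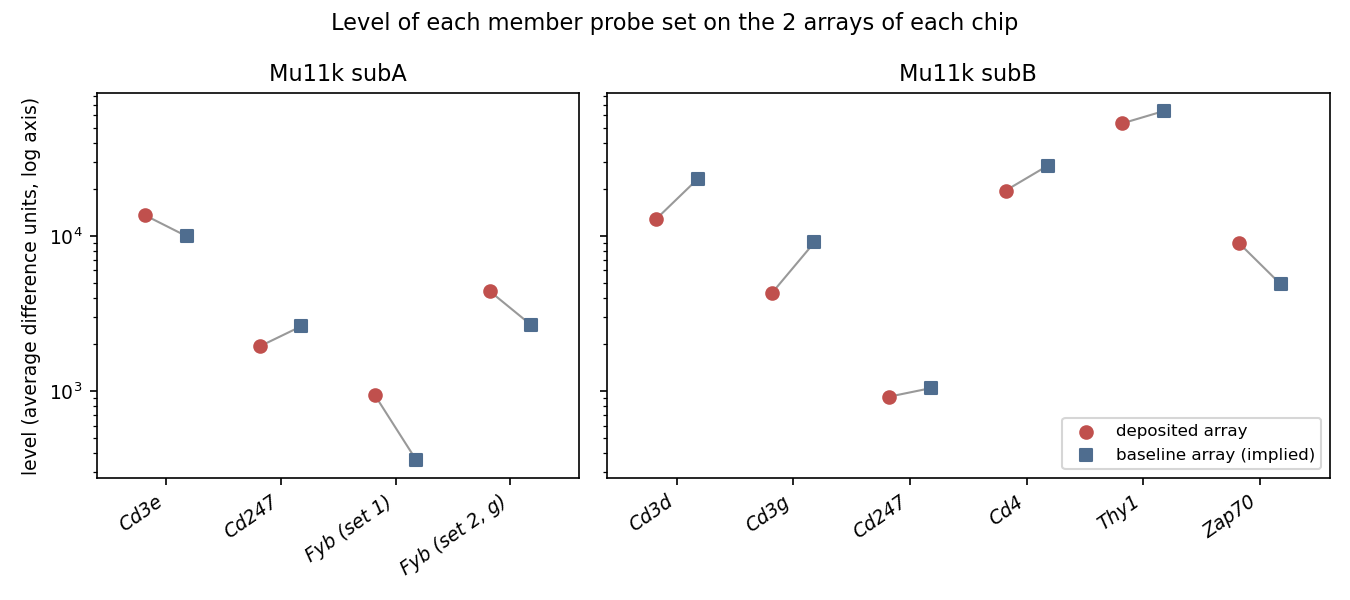
Level in average difference units (log axis) of each member probe set on the deposited array (red circles) and the implied level on the baseline array (blue squares), for subA on the left and subB on the right; levels of different probe sets are not comparable. On subB the level of Zap70 is higher on the deposited array and the other 5 are lower, with Cd3g at 4317 against 9078.

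Cd247, which encodes the zeta chain that ZAP-70 docks on, was the 1 gene with a probe set on each chip. On subA its level was 1949 on the deposited array and 2622 on the baseline array. The authors' deposited table lists 1.3-fold lower there, with no difference call and 5 of 20 pairs decreased against 0 increased. On subB the level was 920 on the deposited array and 1045 on the baseline array, which was marked absent. The fold in the authors' deposited table for that chip was 1.1 lower, without a difference call and with 3 pairs scored each way. Only 7 of 20 pairs were positive in this second probe set, and it was the 1 member whose log-ratio score changed in the opposite direction to its fold. As a measure of spread between probe sets, the SD of the log2 fold between paired probe sets of one gene was 0.46 on subA (251 genes) and 0.62 on subB (51 genes). This SD is scaled to the fold of a single probe set. It comes from the same array pair and holds no spread between arrays or samples. Neither Cd247 value lay outside this SD.

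The coreceptor gene Cd4, whose product binds MHC class II and carries Lck, had 19607 units on the deposited array of subB, against 28344 on the baseline array. The authors' deposited table marks it as decreased with a fold of 1.4 lower. Of its 20 pairs, 8 were scored as decreased and 0 as increased. This fold was common, with 23.9% of detected probe sets as far down or further, whereas only 3.97% had as many decreased pairs. The log2 fold of Cd4 was -0.49, where that of detected probe sets of like level had a median of -0.14.

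Thy1, a GPI-anchored glycoprotein that marks mouse T cells, had a level of 53164 on the deposited array and 63938 on the baseline array. On the deposited array 18 of its 20 pairs were scored positive, the highest number among the members. The fold in the authors' deposited table was 1.2 lower with no difference call, and 2 of 20 pairs were scored as decreased. After removal of the median of probe sets of like level, its log2 fold was -0.13.

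The member signalling genes with values, Zap70 on subB and Fyb on subA, stood higher on the deposited array of their chip. The folds of these 2 chips ran against each other, so a shared direction cannot be read from this. Zap70, the receptor's kinase, had 9022 units on the deposited array of subB and 4879 on the baseline array. In the authors' deposited table it had an increase call at 2.0-fold higher, exactly at the threshold used here, with 11 of 20 pairs increased and 1 decreased. The ratio of the 2 levels was 1.85, so Zap70 counts as changed by the deposited fold and not by the ratio. On subB, 7.61% of detected probe sets had a fold at least this high, and 2.26% had as many increased pairs.

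Fyb, the adaptor ADAP, was measured on subA by 2 probe sets made from the same accession, which share their target and are not replicates. The first had a level of 940 on the deposited array and 359 on the baseline array. The authors' deposited table gives an increase call at 3.8-fold higher, with 15 of 20 pairs increased and 1 decreased. The ratio of its levels was 2.62, below the deposited fold. A fold this high was found in 32 of 3343 detected probe sets of subA (0.957%), and 0.449% had as many increased pairs. The second probe set had a level of 4408 on the deposited array, against 2672 on the baseline array. It also had an increase call in the authors' deposited table, at 2.1-fold higher with 10 of 20 pairs increased and 1 decreased, and its level ratio was 1.65. The 2 probe sets of Fyb had the same direction and call and differed in size.

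**Figure D2:**
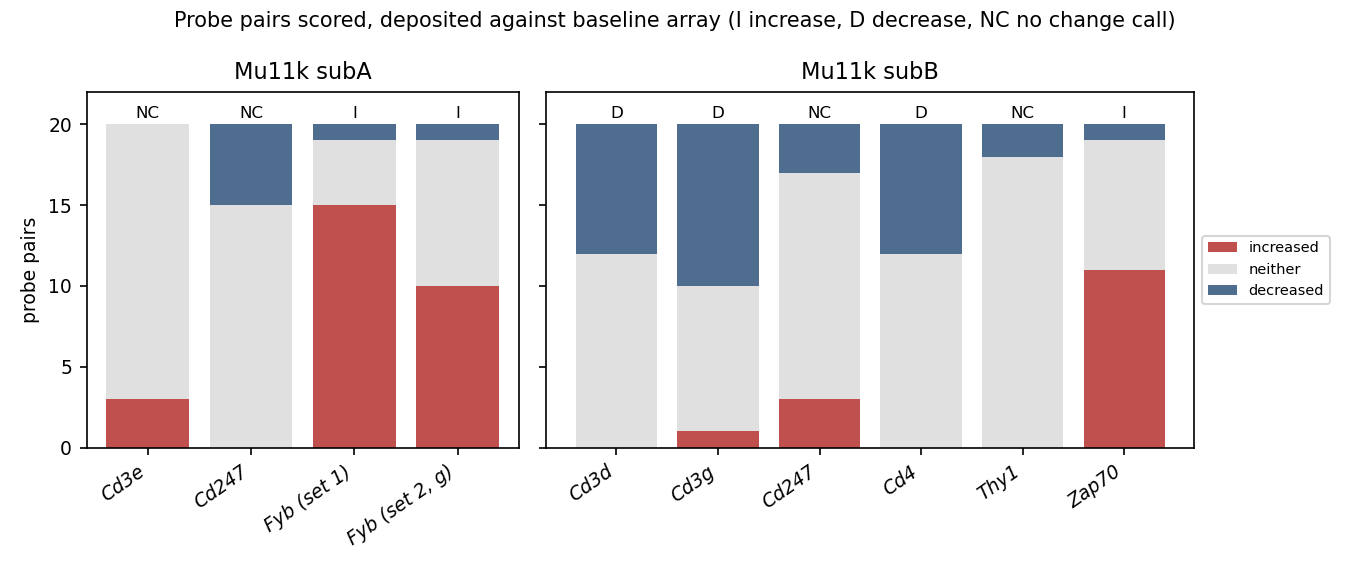
Number of the 20 probe pairs of each member probe set scored as increased (red, bottom), neither (grey) or decreased (blue, top) on the deposited against the baseline array, with the difference call above each bar (I increase, D decrease, NC no change). Fyb and Zap70 have 10 to 15 increased pairs, and Cd3d, Cd3g and Cd4 have 8 to 10 decreased pairs.

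A probe set counted as changed when its deposited fold was at least 2, it had an increase or decrease call and it was detected. This is a rule of size and not a test. On subA, 4.46% of the 3343 that were detected met this rule (1.76% higher, 2.69% lower), and 2 of 4 member probe sets did, both of them Fyb and both higher. On subB, 6.23% of 1813 did so (4.25% higher, 1.99% lower), and 2 of 6 members did, Zap70 as higher and Cd3g as lower. By difference call alone, the background was 7.51% on subA and 8.94% on subB. The members then numbered 2 of 4 on subA and 4 of 6 on subB, where Cd3d and Cd4 join as decreased. Increase calls made up 3.14% of detected probe sets on subA, where 2 of 4 members had one. On subB they made up 5.79% (1 of 6 members), and decrease calls 3.14% (3 of 6 members).

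All 10 member probe sets were called present on the deposited array, and 9 of them also had a baseline not marked absent. Each thus passed the detection filter, and none had a fold marked as approximate. The median log2 fold of the 4 members on subA was 0.78 and that of the 6 on subB was -0.37, with 0 as the median of all detected probe sets on each chip. Of the 10 log2 folds, 6 exceeded the SD between paired probe sets on their chip: both of Fyb, Cd3e, Cd3d, Cd3g and Zap70. That SD is a low cutoff, since 20.1% of detected probe sets of subA had a fold as high as that of Cd3e. On subB, 10.8% had one as far down as that of Cd3d. The ratio of levels was at least 2 for the first Fyb probe set and Cd3g, 2 of 10. The shares of all detected probe sets beyond the SD or with such a ratio were not counted, so neither count sets the members apart.

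**Figure D3:**
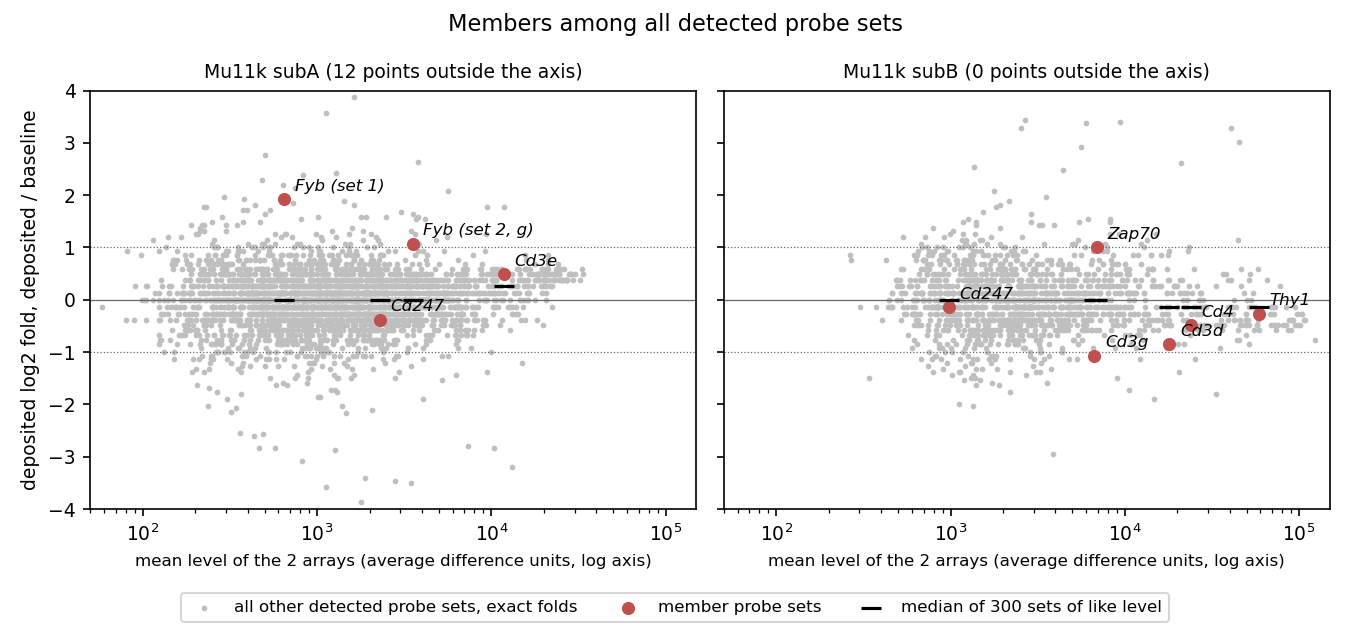
Deposited log2 fold (deposited over baseline) against the mean level of the 2 arrays (log axis) for detected probe sets with an exact fold (grey) and for the members (red), with the median of the 300 detected probe sets of like level as a black bar and 2-fold as dotted lines. Fyb lies above the 2-fold line on subA, Zap70 lies on it on subB, Cd3g lies just beyond the lower one, and Thy1, Cd4 and Cd3e lie nearer to the median of their level.

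Because the chips ran against each other, the member values were also read with the sign of subB turned. As deposited, 4 of the 10 folds were above 1 and 6 below. With subB turned, 8 were above and 2 below, and those 2 were Zap70 on subB and Cd247 on subA. The genes Cd3d, Cd3g, Cd3e, Cd4 and Thy1 then fall on the higher side together with Fyb. These counts join the 2 chips, and the shares of all detected probe sets above and below 1 were not counted. They therefore do not set the members apart from other genes. The number of members counted as changed is 3 higher and 1 lower either way, with Zap70 the lower one when turned and Cd3g the lower one as deposited.

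The labelled cell type was set against its markers. Of the 9 T cell markers 8 had probe sets, all of them called present on the deposited array of their chip: Cd3d, Cd3g, Cd3e, Cd247, Cd4, Thy1, Cd2 and Cd5. Cd8a, which marks CD8 T cells, was called absent on both arrays of subB, with levels of -1568 on the deposited and -1337 on the baseline array. The summed level of the 3 T cell probe sets of subA, 2 of which are members, was 16131 on the deposited array and 13147 on the baseline array. That of the 6 T cell probe sets of subB, 5 of which are members, was 102741 on the deposited array and 136789 on the baseline array. The 2 sums differ in direction, but they hold different genes. Cd3e is the largest part of the subA sum and Thy1 of the subB sum, and neither had a difference call. Cd247, the gene on both chips, was lower on both deposited arrays but had no difference call on either. On subB its pairs were scored 3 each way. Fewer T cells and less of these RNAs per cell cannot be told apart in bulk RNA.

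Markers of other cells were summed over their detected probe sets, because some absent ones have levels below 0. Not all absent ones were low. The MHC class II genes, which mark antigen-presenting cells in mice, had 3 of 6 probe sets detected on subB, with a sum of 16389 on the deposited array and 8698 on the baseline array. With the absent ones included, the sum was 23986 on the deposited array and 16007 on the baseline array. One absent H2-Eb1 probe set alone had 4641 on the deposited and 3916 on the baseline array. Cd74, the invariant chain, counted as higher there at 2.9-fold in the authors' deposited table. On subA, 3 of 3 were detected, with a sum of 5553 on the deposited array and 5445 on the baseline array. The detected dendritic cell markers, a different gene on each chip, stood lower on the deposited array, without a difference call. Flt3 on subA was absent on both arrays, with -157 on the deposited and -262 on the baseline array. Flt3 on subB, the 1 probe set of its list there, had 802 units on the deposited array and 1716 on the baseline array, 2.1-fold lower in the authors' deposited table. Cd83 on subA, the 1 of 2 detected there, had 123 units on the deposited array, called absent, and 751 on the baseline array, 6.1-fold lower in the authors' deposited table.

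B cell markers were detected in 1 of 3 probe sets of subB, an Ighm probe set with 2820 units on the deposited array and 2118 on the baseline array. On subA, 2 of 7 were detected, with a sum of 3155 on the deposited array and 3945 on the baseline array. Myeloid markers were detected in 2 of 3 probe sets of subA, with a sum of 5927 on the deposited array and 2993 on the baseline array. Most of it was Lyz2, the lysozyme gene of macrophages, at 5294 on the deposited and 2286 on the baseline array. Lyz2 was 6.2-fold higher in the authors' deposited table, well above the ratio of its levels, and had no difference call. On subB, 2 of 4 myeloid probe sets were detected, Cd14 and Mpeg1, with a sum of 1908 on the deposited array and 3177 on the baseline array. No B cell, myeloid or dendritic cell marker counted as changed, and the 2 natural killer cell probe sets of subA were absent on both arrays. On subA, a probe set of the B cell marker Ms4a1 had a decrease call but was absent on both arrays. Its levels were -643 on the deposited and 254 on the baseline array. The part of other cells in the CD3 and CD4 levels was not tested.

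Of 91 other genes of the pathway, 34 had probe sets on subA and 18 on subB, and 29 and 9 of them were detected. On subA, 2 of 33 detected probe sets counted as changed (6.06%, against 4.46% of all), 1 higher and 1 lower, and the median log2 fold was 0. On subB, 1 of 9 did (11.1%, against 6.23%), which was higher, and the median was again 0. The 3 that counted act at separate steps of the pathway.

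Among the adaptors, Sla counted as higher on subB. Its product, SLAP, is known in mouse thymocytes to lower receptor levels by promoting degradation of the zeta chain. The level was 3377 on the deposited array, against 924 on a baseline array marked absent, so the size of the fold is uncertain. The authors' deposited table lists 3.7-fold higher with 12 of 20 pairs increased and 2 decreased. Lcp2, which encodes SLP-76, the adaptor that ZAP-70 phosphorylates and that binds ADAP, had 2006 units on the deposited array of subA and 3497 on the baseline array. It had a decrease call at 1.7-fold lower in the authors' deposited table, with 11 of 20 pairs decreased and 0 increased, so this partner of Fyb was marked in the opposite direction to Fyb on the same array pair. The actin regulators Was on subA and Vasp on subB had folds of 1.3 and 1.2 higher in the authors' deposited tables, without a difference call.

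Among the negative regulators detected on subA, the phosphatase genes Ptpn6 and Ptpn22 had decrease calls. Ptpn6, which encodes SHP-1, had a level of 1465 on the deposited array and 4165 on the baseline array. It counted as lower, at 2.8-fold in the authors' deposited table, with 14 of 20 pairs decreased and 1 increased. Ptpn22, a phosphatase that acts on Lck, had a level of 4878 on the deposited array, against 7677 on the baseline array. Its fold was 1.6 lower in the authors' deposited table, with 7 of 20 pairs decreased, and did not count. Downstream, Ppp3ca, a catalytic subunit of calcineurin, counted as higher on subA, with a level of 510 on the deposited array and 186 on the baseline array. The authors' deposited table gives 2.7-fold, with 11 of 20 pairs increased and 3 decreased.

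Of the remaining kinases, Jak3, which signals from cytokine receptors, had 20563 units on the deposited array of subA and 16114 on the baseline array and no difference call. Csk, which inhibits Lck, had 3363 units on the deposited and 3846 on the baseline array by 1 probe set of subA, and 1440 on the deposited and 1199 on the baseline array by the other. Its 2 probe sets of subA thus differed in direction. On subB, Csk had 1583 units on the deposited and 1869 on the baseline array, 1.2-fold lower in the authors' deposited table. None of these had a difference call, and no detected kinase on the list counted as changed on either chip. Among surface receptors, Cd28, the costimulatory receptor, had 1818 units on the deposited array of subA and 2987 on the baseline array, with a decrease call at 1.6-fold lower in the authors' deposited table. Ptprc, the phosphatase CD45, which activates Lck, had 12101 on the deposited array and 13365 on the baseline array, without a difference call. On subB the adhesion receptor Cd2 had a level of 11959 on the deposited array, against 11068 on the baseline array. Its ligand gene Cd48 had 2996 on the deposited array and 5715 on the baseline array, with a fold of 1.9 lower and no difference call in the authors' deposited table. The T cell surface genes of subB thus differed among themselves. In the authors' deposited table for that chip, Cd2 (1.1 higher) and Thy1 (1.2 lower) had smaller folds than Cd3g and Cd3d, while the fold of Cd48 lay between those of Cd3d and Cd3g. The log2 gap of Thy1 to Cd3d was within the SD between paired probe sets. The gaps of Cd2 to Cd3d and to Cd3g and that of Thy1 to Cd3g were larger than this SD. It is scaled to a single probe set, however, and a gap between 2 spreads more widely. Whether these gaps exceed technical spread was not tested.

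The receptor chains themselves were covered by Trbv13-2, a beta-chain variable segment, and by Fcer1g, which can replace the zeta chain. Trbv13-2 had 860 units on the deposited array of subA, called absent, and 1129 on the baseline array, and its subB probe set was absent on both arrays. Fcer1g had 1224 units on the deposited array of subA, against 2100 on the baseline array, with a fold of 1.7 lower in the authors' deposited table and no difference call. The exchange factor Vav1 had folds of 1.1 and 1.3 higher by its 2 probe sets in the authors' deposited table for subA, and 2.0 lower on subB with an absent call on the deposited array, all without a difference call. Nfatc2, a transcription factor that calcineurin activates, had 1646 units on the deposited array of subA and 1671 on the baseline array. Ppp3cb, another calcineurin catalytic subunit, had 3937 units on the deposited array of subB, against 2099 on the baseline array. The authors' deposited table lists it as 1.5-fold higher, below the ratio of its levels. The kinase gene Abl1 had 326 units on the deposited array of subB and 334 on the baseline array, marked absent. These 3 had no difference call.

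**Figure D4:**
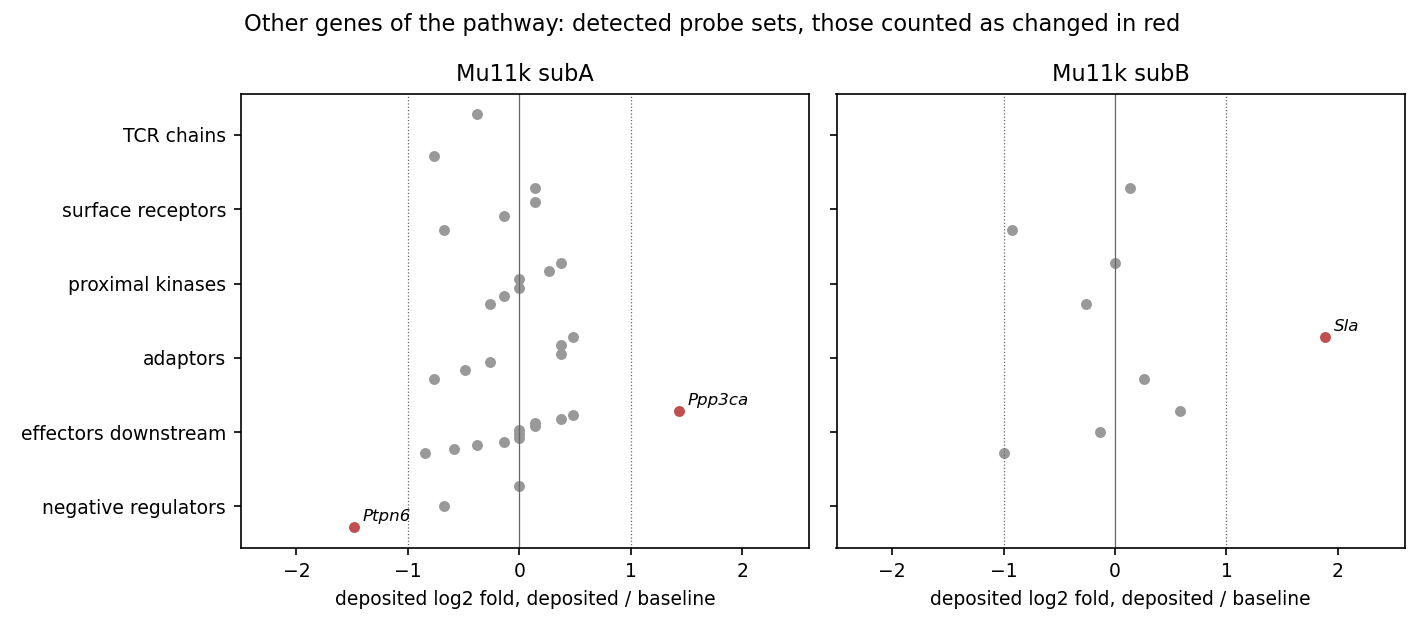
Deposited log2 fold (deposited over baseline) of detected probe sets of other genes of the pathway, by role from top to bottom, for subA on the left and subB on the right, with 2-fold as dotted lines; those that counted as changed are red and named. Ppp3ca and Ptpn6 on subA and Sla on subB are the 3 that counted.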

How the data were processed

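Per the file headers, the authors' deposited tables are Affymetrix output comparing an experiment array with a baseline array. The software and its scaling are not given in the sources used here. Each deposited level is an intensity, the mean of perfect match minus mismatch over the probe pairs, and 20.8% of levels on subA and 35.5% on subB lie below 0. The deposited fold and change are signed scores, and the log-ratio score over probe pairs was used for its sign alone. A deposited fold can differ from the ratio of levels.

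Levels of the baseline array, log2 folds, counts and medians were computed here with pandas 2.3.3, SciPy 1.17.1 and NumPy 2.4.6 under Python 3.11.15, and figures were drawn in matplotlib 3.10.9. A missing asterisk in the baseline column was read as present. The 55 control probe sets per chip were left out. On subA 5560 probe sets had 1 symbol, 197 several and 827 none, and on subB 2001, 27 and 4567; probe sets with several symbols were not named. Columns of other samples numbered 0. All members are named, with the called pathway genes and the detected probe sets of highest mean level per role, up to 2 a role. Lyz2, Flt3, Cd83, Ighm, Ms4a1, Cd14, Mpeg1 and the other Vav1 and Csk probe sets of subA were added after their values were seen. Members and lists were chosen with earlier results of these data known. Alternatives were other fold thresholds, calls, filters and folds, and, added after seeing the data, subtraction of the median of the 300 probe sets nearest in level and turning the sign of subB. The call rule was tested on simulated data.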

Additional observations from a re-analysis of the deposited data

How the results depend on the processing

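Turning the sign of subB turns all 6 member folds of that chip by construction. Under centring, subtraction of the median of like level and the 2 floors, no log2 fold of a member changed sign (40 of 40 kept it). Much of this was fixed in advance. Centring subtracts a chip median that is 0 on both chips, and the median of like level is also 0 for Fyb, Zap70, Cd3g and Cd247. The 2 floors gave different values for the first Fyb probe set alone. Counts and medians stayed within 1.5 times or the SD between probe sets of a gene in 96 of 110 comparisons, of which those with centring could not move. Nor could those of the members without the detection filter or with approximate folds left out, since all members were detected with exact folds. The comparisons that moved follow. At a fold of at least 3, members counted as changed were 1 higher on subA, and 0 higher and 0 lower on subB, and pathway genes on subA were 0 higher and 0 lower. At 1.5, members lower on subB were 2 and pathway genes lower on subA were 4. With the fold taken as a ratio of levels, members higher were 1 on subA and 0 on subB with a floor of 100 units, and 0 on both with a floor of 500, which also gave 0 pathway genes higher on subA. The log2 fold of the first Fyb probe set was 1.39 and 0.91 with these floors, against 1.93 as deposited. Without a difference call, 1 pathway gene was lower on subB, and with presence required on both arrays 0 were higher there. The cause was not tested beyond what each setting removes. Median log2 folds of the members lay between 0.58 and 0.78 on subA and between -0.49 and -0.24 on subB. With 1 array a condition and chip, no spread between samples is known. No paired analysis was possible because no sample is replicated.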
